A study of Haemaphysalis flava with 2 samples.

Results

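Antioxidant enzymes, selenoproteins, ferritin and other iron and haem proteins were followed in the salivary glands of a blood-feeding hard tick, Haemaphysalis flava. A contig was taken as a member when the name of its best-matching UniProt protein held peroxiredoxin, thioredoxin, superoxide dismutase, catalase, glutathione peroxidase, selenoprotein, glutaredoxin, ferritin, iron, heme or metallothionein. Names with glutathione S, TXNDC, environment, hemelipo or cytochrome were left out. This gave 40 of 54357 assembled contigs, in 10 role groups, and no contig was named metallothionein or thioredoxin reductase. Of the 40, 37 matched a tick protein, 20 of them from Rhipicephalus pulchellus, and the other 3 matched a mammal or a blood fluke. A name is that of the best match and was not checked against the tick's own sequence.

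The groups are glands of engorged ticks and glands of semi-engorged ticks, each with 1 library of polyadenylated RNA, and the labels give no treatment, strain, age or sex. The series text counts 100 dissected glands and 50 ticks at each stage, so each library was treated as 1 pool of animals. The engorged library held 57892372 reads on contigs and the semi-engorged library 54039984. With 1 library per stage there is no replicate check of any difference, and intervals cover counting error only.

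Blood feeding loads a tick with haem and iron from digested haemoglobin, and both can drive the formation of reactive oxygen species. Superoxide dismutases turn superoxide into hydrogen peroxide, which catalase, peroxiredoxins and glutathione peroxidases remove, while thioredoxins and glutaredoxins return oxidised thiols to their reduced state. Ferritin stores iron in a protein shell. Iron regulatory proteins are known to hold back the translation of ferritin messages when iron is scarce, and selenoproteins carry the amino acid selenocysteine, often at a redox site.

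In the engorged library 1 of 2 ferritin contigs and 3 other contigs with iron in their name were higher. From a list of related genes, 2 contigs named iron regulatory protein were lower, while an aconitase contig of the same superfamily (contig_2168) was in neither class. A contig counted as 2-fold different when the ratio of CPM + 1 (reads per 1000000 library reads, plus 1), engorged over semi-engorged, had a log2 of 1 or more in size. By this measure 13.0% of all 47965 contigs with at least 20 reads were higher and 15.5% lower in the engorged library. Ferritin (contig_272) and all 3 other contigs with iron in their name were higher in engorged glands by this measure. Both thioredoxin peroxidase contigs, 3 of 10 thioredoxin-family contigs and selenoprotein K were at least 2-fold lower. Salivary selenoprotein M was among the most abundant transcripts of both libraries and differed by 1.34-fold. Of 9 ferritin, iron and haem contigs, 4 were higher (44.4%) and 1 lower. The share higher was 13.0% of all contigs with at least 20 reads and 22.9% at 100 reads or more in a library. Words in names join these 9, and 3 of the 4 are the other iron-named contigs, so no direction is read for this group. By role, 1 of 23 superoxide dismutase, catalase, peroxidase, thioredoxin-family and glutaredoxin contigs was higher and 6 lower. Those counts were 2 and 4 when the 50 most abundant contigs of each library were left out of the totals. The 6 lower enzymes are 26.1% of the 23, against 15.5% of all contigs, or 24.5% at 100 reads or more in a library. The 1 higher enzyme is 4.3%, below the 13.0% and 22.9% of all contigs at those levels. Of the 23 log2 folds, 17 were negative and 6 positive, with a median of -0.31 (order statistic interval -0.94 to -0.025). Their summed CPM was 1.58-fold lower. The median was -0.094 with the 50 most abundant contigs left out. The enzymes thus leaned lower by an amount that moved with the scaling. With 1 library per stage, this lean is not read as a property of the enzymes.

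In all, 39 of the 40 contigs had the 20 reads needed to be counted. Of these, 5 (12.8%) were higher and 8 (20.5%) lower in engorged glands, and 26 were in neither class. Beside the 13.0% and 15.5% of all contigs, these shares are not read as a property of the set. With the 50 most abundant contigs left out of the totals the counts of members turned to 8 and 5, and those of all contigs were 8719 and 7823, where the library totals gave 6257 and 7421. All 13 had 100 reads or more in a library, a level that 33 members reached. At that level the shares were 15.2% and 24.2% of members, against 22.9% and 24.5% of all contigs. A pseudocount of 10 CPM in place of 1 ended 6 of the 13 calls, those of contig_2011, contig_27963, contig_21757, contig_17749, contig_4870 and contig_4101. The median log2 fold of the members was -0.065 (order statistic 95% interval -0.58 to 0.28), against -0.049 over all contigs, and its sign turned with the scaling. The quartiles of the members were -0.84 and 0.46, those of all contigs -0.61 and 0.51.

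**Figure D1:**
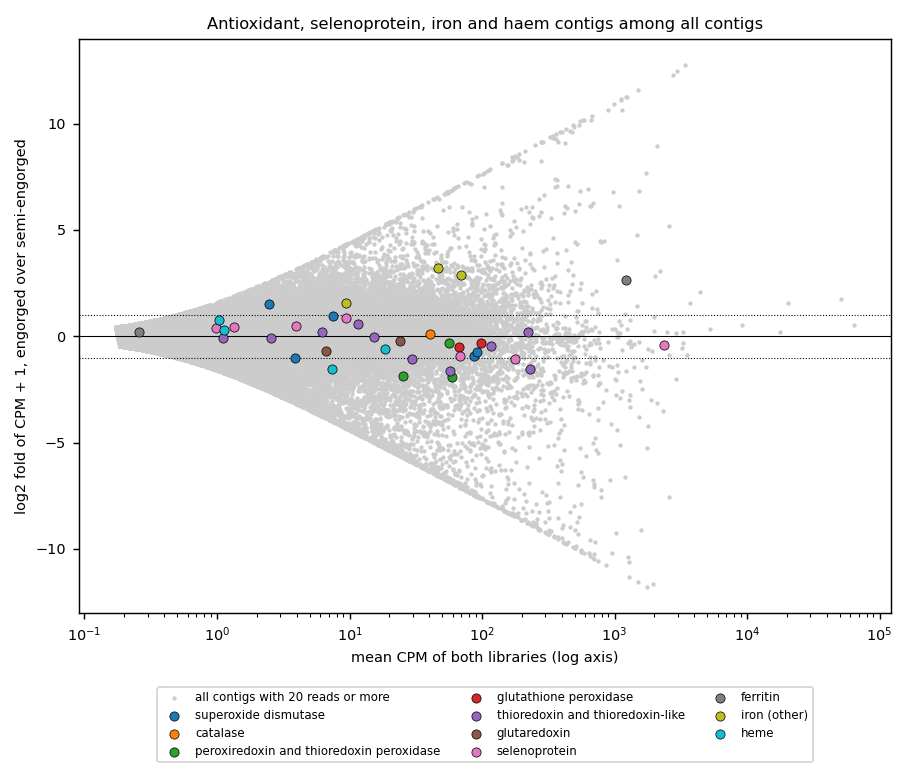
Log2 fold of CPM + 1 (engorged over semi-engorged, y axis) against the mean CPM of both libraries (x axis, log scale), with all 47965 contigs in grey and 39 members coloured by role group; dotted lines mark log2 folds of -1 and 1. Ferritin (log2 fold 2.66) and selenoprotein M (-0.42) lie far to the right, 2 of the 3 other iron contigs lie highest, and most members sit between the dotted lines.

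Well-covered contigs (100 reads or more in each library, 17032 of them) gave a median log2 ratio of 0.23, a 1.18-fold shift towards the engorged library. It is called the general shift here, and it depends on the scaling. Trimmed-mean (TMM) factors gave a log2 shift of -0.0028, and totals without the 50 most abundant contigs of each library gave -0.22. With the general shift of 0.23 removed, all 13 contigs kept their class. A superoxide dismutase (contig_5500) and selenoprotein T (contig_11521) joined the lower class, while all contigs counted 4982 higher and 8541 lower. Close to the threshold, a superoxide dismutase (contig_17749, log2 fold -1.01) and selenoprotein K (contig_4101, -1.05) lay just inside. Another superoxide dismutase (contig_10496, 0.96), contig_5500 (-0.94) and contig_11521 (-0.93) lay just outside.

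**Figure D2:**
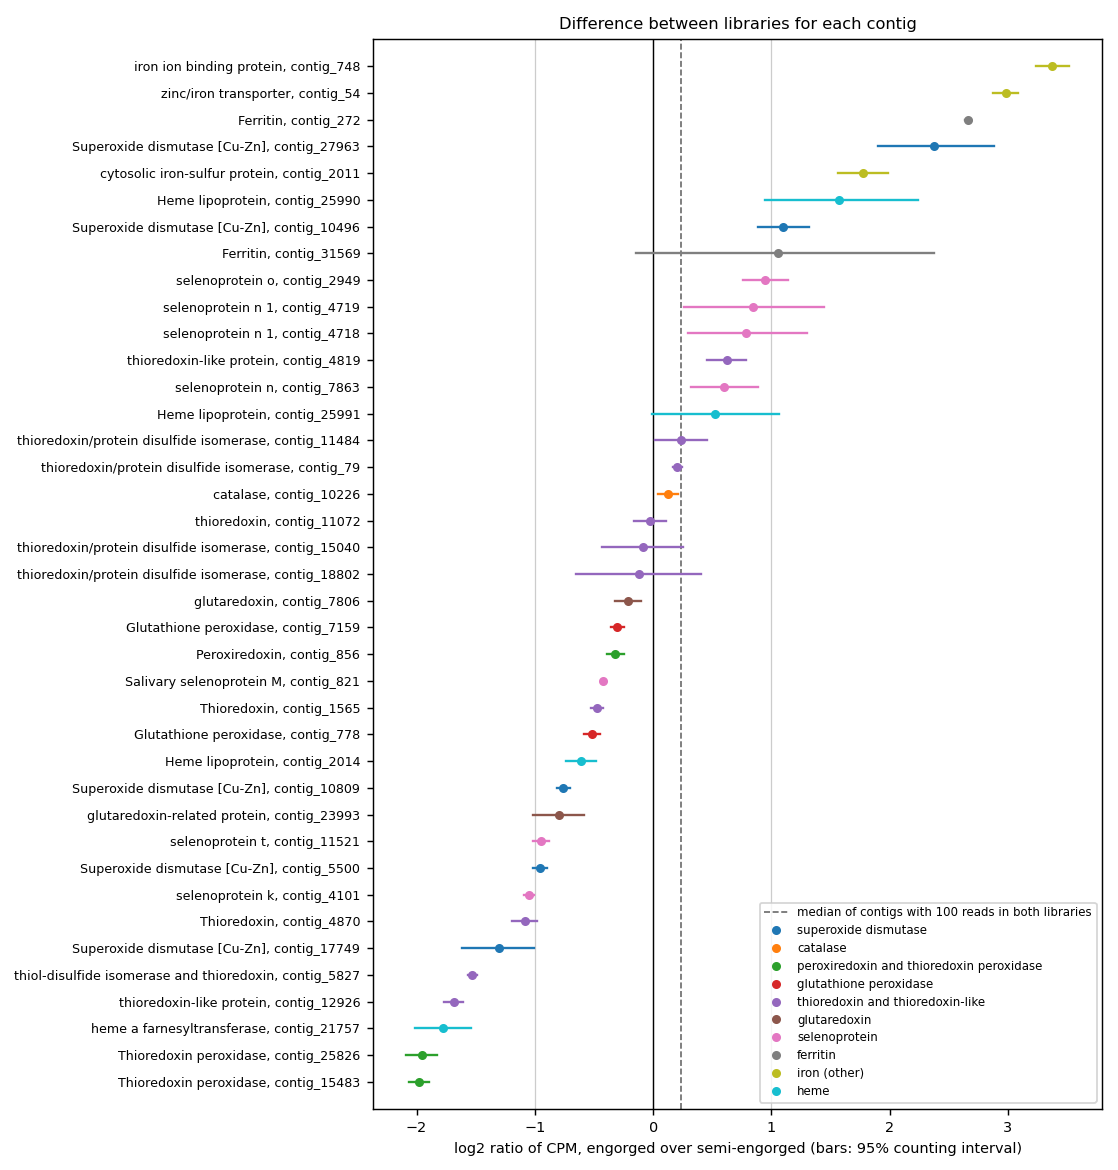
Log2 ratio of CPM, engorged over semi-engorged, for the 39 contigs with reads in both libraries, with 95% counting intervals (bars), coloured by role group; the dashed line marks the median log2 ratio of 0.23 of well-covered contigs. The iron contigs contig_748 and contig_54 and ferritin contig_272 stand at the top, followed by a superoxide dismutase (contig_27963, ratio 5.19) and the iron contig_2011 (3.42), and both thioredoxin peroxidases at the bottom.

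Of 2 ferritin contigs, 1 was higher in the engorged library and 1 was in neither class. The ferritin contig_272, named after the ferritin of Haemaphysalis longicornis, had 121588 reads in engorged glands, against 17931 in semi-engorged glands. That is 2625 RPKM (reads per kilobase of contig and per 1000000 library reads) in engorged glands, against 415 RPKM in semi-engorged glands, a ratio of 6.33 (95% interval 6.23 to 6.43), or 5.38 with the general shift removed. Its rank by RPKM was 33 of all contigs in engorged glands and 418 in semi-engorged glands. Of all reads on the 40 contigs, ferritin took 38.0% (Wilson 95% interval 37.8% to 38.2%) in the engorged library and 6.65% (6.56% to 6.74%) in the semi-engorged library. In whole-gland RNA, more RNA per cell and more cells of a type cannot be told apart, and this holds for every difference here.

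Contigs named haemoglobin subunit or serum albumin were also higher in the engorged library. The other 3 contigs with host blood names and at least 20 reads had negative log2 folds, down to -0.61, and were in neither class. Host blood words matched 7 contigs, of which 3 of the 6 with enough reads were higher and 0 lower in engorged glands. The 7 summed to 2873 reads in engorged glands, against 1663 in semi-engorged glands, a ratio of 1.61 (1.52 to 1.71). They include immunoglobulin-family names that need not be of the host. The 3 contigs named haemoglobin subunit or serum albumin had 1796 reads in engorged glands, against 318 in semi-engorged glands, 5.27-fold higher (4.68 to 5.96). A ferritin contig that matched a guinea pig protein (contig_31569) had 20 reads in engorged and 9 in semi-engorged glands, with a ratio of 2.07 whose interval (0.903 to 5.17) includes 1. The part of host blood in the ferritin difference was not tested.

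The other 3 contigs with iron in their name were all higher in the engorged library under each of the 4 scalings tried, and a pseudocount of 10 CPM ended the call of contig_2011. A contig with the general name iron ion binding protein (contig_748) had 4887 reads in engorged glands, against 440 in semi-engorged glands. Its ratio of 10.4 (9.40 to 11.5) was the largest of the members with reads in both libraries. A zinc/iron transporter (contig_54), a name used for membrane carriers that bring these metals into the cytosol, had 7152 reads in engorged and 846 in semi-engorged glands, and was 7.89-fold higher (7.35 to 8.48). A cytosolic iron-sulfur protein (contig_2011) had 838 reads in engorged and 229 in semi-engorged glands, and was 3.42-fold higher (2.95 to 3.97). Per length, these 3 stood at 64.8, 43.5 and 15.4 RPKM in the engorged library, against 6.25, 5.51 and 4.50 RPKM in the semi-engorged library. They were thus at similar low levels in the semi-engorged library and spread apart in the engorged library. Summed, they held 222 CPM in the engorged library and 28.0 CPM in the semi-engorged library, a ratio of 7.93 (7.52 to 8.37).

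Haem-named contigs were low and mixed, with 0 higher and 1 lower of 4 (1 and 1 with the 50 most abundant contigs left out). Heme a farnesyltransferase (contig_21757) is named for a step on the way to the haem a of cytochrome c oxidase. It had 194 reads in engorged glands, against 619 in semi-engorged glands, and was 3.42-fold lower (2.90 to 4.04). A haem-carrying storage protein of tick haemolymph, heme lipoprotein, named 3 contigs, and all 3 were in neither class. The most abundant of them (contig_2014) had 857 reads in engorged and 1220 in semi-engorged glands, and was 1.53-fold lower (1.40 to 1.67). The fragments contig_25991 (77 reads engorged, 50 semi-engorged) and contig_25990 (89 reads engorged, 28 semi-engorged) had ratios above 1, the first with an interval (0.994 to 2.10) that includes 1. Both fragments share the same best match, so reads could be split between them. A heme-binding aspartic proteinase (contig_27993), of a kind described from the cattle tick, had 17 reads in engorged and 0 in semi-engorged glands. It did not reach 20 reads. With 0 set to a floor of 3 reads its ratio was 5.29, for which no interval was computed.

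Superoxide dismutases, all 5 named as the copper and zinc form, differed in both directions, with 1 higher and 1 lower (1 and 2 with the general shift removed, 2 and 0 with the 50 most abundant contigs left out). The 2 abundant ones were lower in the engorged library without passing the threshold. Contig_5500, whose best match is a bushbaby protein, had 3448 reads in engorged glands, against 6234 in semi-engorged glands, and was 1.94-fold lower (1.86 to 2.02). Contig_10809 had 3916 reads in engorged and 6183 in semi-engorged glands, and was 1.69-fold lower (1.62 to 1.76). These contigs hold most of the reads of the group, which summed to 144 CPM in the engorged library and 241 CPM in the semi-engorged library, 1.68-fold lower (1.63 to 1.72).

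The 3 scarce superoxide dismutases stood between 0.719 and 9.18 RPKM. Contig_27963, with 239 reads in engorged glands, against 43 in semi-engorged glands, was 5.19-fold higher (3.74 to 7.36). Contig_10496, which matched a blood fluke protein, had 593 reads in engorged and 258 in semi-engorged glands, and was 2.15-fold higher (1.85 to 2.49). It passed the threshold when the 50 most abundant contigs of each library were left out of the totals. Contig_17749 had 130 reads in engorged and 300 in semi-engorged glands, and was 2.47-fold lower (2.01 to 3.06), a difference that did not pass the threshold under that scaling. The scarce contigs thus include 1 past the threshold on each side, and the summed value follows the abundant pair.

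Among the enzymes that remove hydrogen peroxide, the thioredoxin peroxidases differed most. Contig_15483 had 1394 reads in engorged glands, against 5127 in semi-engorged glands, and was 3.94-fold lower (3.71 to 4.18), or 4.63-fold with the general shift removed. Contig_25826 had 606 reads in engorged and 2196 in semi-engorged glands, and was 3.88-fold lower (3.55 to 4.25). Their ratios lie within each other's counting intervals, and at 547 and 327 bases both contigs are short. They match proteins of different tick species, and whether they are pieces of 1 transcript was not tested. The contig named peroxiredoxin after that of Haemaphysalis longicornis (contig_856) had 2917 reads in engorged and 3398 in semi-engorged glands, and was 1.25-fold lower (1.19 to 1.31). Thioredoxin peroxidases are themselves peroxiredoxins, so these contigs of 1 enzyme family differed between the libraries by unequal amounts.

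Catalase, which breaks down hydrogen peroxide without a thiol donor, was nearly level between libraries. Its contig_10226 had 2464 reads in engorged glands, against 2113 in semi-engorged glands, a ratio of 1.09 (1.03 to 1.15) that turned to 0.926 with the general shift removed. The 2 glutathione peroxidases, which use glutathione as the donor, were both in neither class. Contig_7159, whose best match is the glutathione peroxidase of Boophilus microplus, had 5120 reads in engorged and 5894 in semi-engorged glands, and was 1.23-fold lower (1.19 to 1.28). Contig_778 had 3196 reads in engorged and 4272 in semi-engorged glands, and was 1.43-fold lower (1.37 to 1.50). Per length, contig_778 stood at 80.4 RPKM in engorged glands, against 115 RPKM in semi-engorged glands, and contig_7159 at 109 RPKM in engorged glands, against 134 RPKM in semi-engorged glands. Both stood above catalase, which had 32.5 RPKM in engorged glands, against 29.9 RPKM in semi-engorged glands.

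**Figure D3:**
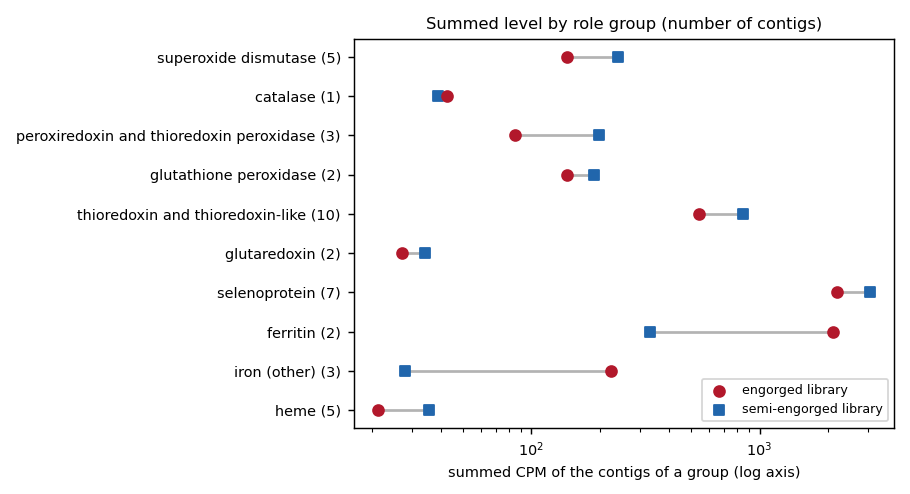
Summed CPM of the contigs of each role group (x axis, log scale) in the engorged (circles) and the semi-engorged library (squares), with the number of contigs in brackets. Ferritin (2101 CPM engorged, 332 CPM semi-engorged) and the other iron contigs (222 CPM engorged, 28.0 CPM semi-engorged) are higher in the engorged library, catalase is nearly level, and the other 7 groups are lower there.

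The thioredoxin group had 10 contigs, of which 0 were higher, 3 lower and 7 in neither class in the engorged library. Of them, 5 are named disulfide isomerase, enzymes of the endoplasmic reticulum that form and reshuffle disulfide bonds in secreted proteins. One of these, contig_5827, had 6906 reads in engorged glands, against 18600 in semi-engorged glands, and was 2.89-fold lower (2.81 to 2.97). The isomerase with the most RPKM over both libraries, contig_79, had 13820 reads in engorged and 11191 in semi-engorged glands, a ratio of 1.15 (1.12 to 1.18), which turned to 0.980 with the general shift removed. The remaining 3 isomerase contigs had 62 to 385 reads in engorged glands, against 63 to 306 in semi-engorged glands, and log2 folds of -0.065 to 0.20. By contig, most of this family was therefore close to level while contig_5827 stood apart. Summed, the 5 had 21317 reads in engorged glands, against 30303 in semi-engorged glands, and were 1.52-fold lower (1.50 to 1.55). Most of the semi-engorged reads were on contig_5827. The scarce contig_15040 and contig_18802 share a best match, so reads could be split between them.

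Thioredoxins proper and thioredoxin-like proteins gave 2 contigs that were at least 2-fold lower. A thioredoxin (contig_4870) had 1107 reads in engorged glands, against 2194 in semi-engorged glands, and was 2.12-fold lower (1.97 to 2.28), a call lost when the 50 most abundant contigs were left out of the totals. A thioredoxin-like protein on a contig of 3555 bases (contig_12926) had 1572 reads in engorged and 4725 in semi-engorged glands, and was 3.22-fold lower (3.04 to 3.41). The most abundant thioredoxin (contig_1565) had 5714 reads in engorged and 7402 in semi-engorged glands, and was 1.39-fold lower (1.34 to 1.44). Of the other 2, contig_11072 had a ratio of 0.982 (0.892 to 1.08) and contig_4819 a ratio of 1.54 (1.37 to 1.72). Both glutaredoxins, which use glutathione to reduce disulfides, were in neither class. Contig_7806 had 1285 reads in engorged and 1387 in semi-engorged glands (ratio 0.865, 0.801 to 0.934), and the glutaredoxin-related contig_23993 had 282 reads engorged and 458 semi-engorged (ratio 0.575, 0.494 to 0.668). The sign of contig_7806 turned when the 50 most abundant contigs were left out.

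Selenoproteins were led by salivary selenoprotein M (contig_821), named after a protein of the tick Ixodes scapularis. In mammals, selenoprotein M is a thioredoxin-fold protein of the endoplasmic reticulum. It had 116566 reads in engorged glands, against 146048 in semi-engorged glands, or 4051 RPKM in engorged glands, against 5438 RPKM in semi-engorged glands. Its rank by RPKM was 22 of all contigs in engorged glands and 9 in semi-engorged glands. Its share of all library reads was 0.201% (0.200% to 0.203%) in engorged glands, against 0.270% (0.269% to 0.272%) in semi-engorged glands, a ratio of 0.745 (0.739 to 0.751). It was thus abundant at both stages, with a difference well inside the threshold.

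Selenoproteins K and T were about 2-fold lower. Selenoprotein K (contig_4101) had 6710 reads in engorged glands, against 12988 in semi-engorged glands, and was 2.07-fold lower (2.01 to 2.14). Selenoprotein T (contig_11521) had 2704 reads in engorged and 4858 in semi-engorged glands, and was 1.92-fold lower (1.84 to 2.02). The class of K was lost and that of T was not gained when the 50 most abundant contigs were left out, and with the general shift removed both passed. Selenoprotein O (contig_2949) and 3 contigs named selenoprotein N lay on the other side. Selenoprotein O had 719 reads in engorged and 348 in semi-engorged glands, and was 1.93-fold higher (1.69 to 2.20). It joined the higher class when the 50 most abundant contigs were left out. The selenoprotein N contigs had 73 to 274 reads in engorged glands, against 38 to 169 in semi-engorged glands, with ratios of 1.51 (contig_7863), 1.73 (contig_4718) and 1.79 (contig_4719). Contig_4718 and contig_4719 share a best match and a length of 392 bases, so reads could be split between them. Without selenoprotein M the group summed to 10578 reads in engorged and 18454 in semi-engorged glands, 1.87-fold lower (1.82 to 1.91).

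Levels per length spanned several orders of magnitude within the set. Selenoprotein M had the highest RPKM of the members in both libraries. Ferritin contig_272 came next in both. At the engorged stage the isomerase contig_79 (158 RPKM), selenoprotein K (120 RPKM) and the glutathione peroxidase contig_7159 (109 RPKM) followed. In the semi-engorged library selenoprotein K (250 RPKM), the superoxide dismutase contig_5500 (184 RPKM) and the thioredoxin peroxidase contig_15483 (173 RPKM) followed. The thioredoxin peroxidase contig_15483 stood at 44.0 RPKM in the engorged library. In all, the 40 contigs took 0.553% (0.551% to 0.554%) of reads at the engorged stage and 0.499% (0.497% to 0.501%) at the semi-engorged stage. Without selenoprotein M and ferritin the remaining 38 took 0.141% (0.140% to 0.142%) in engorged glands and 0.196% (0.194% to 0.197%) in semi-engorged glands, and the ratio of shares was 1.11 with both and 0.721 without them.

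**Figure D4:**
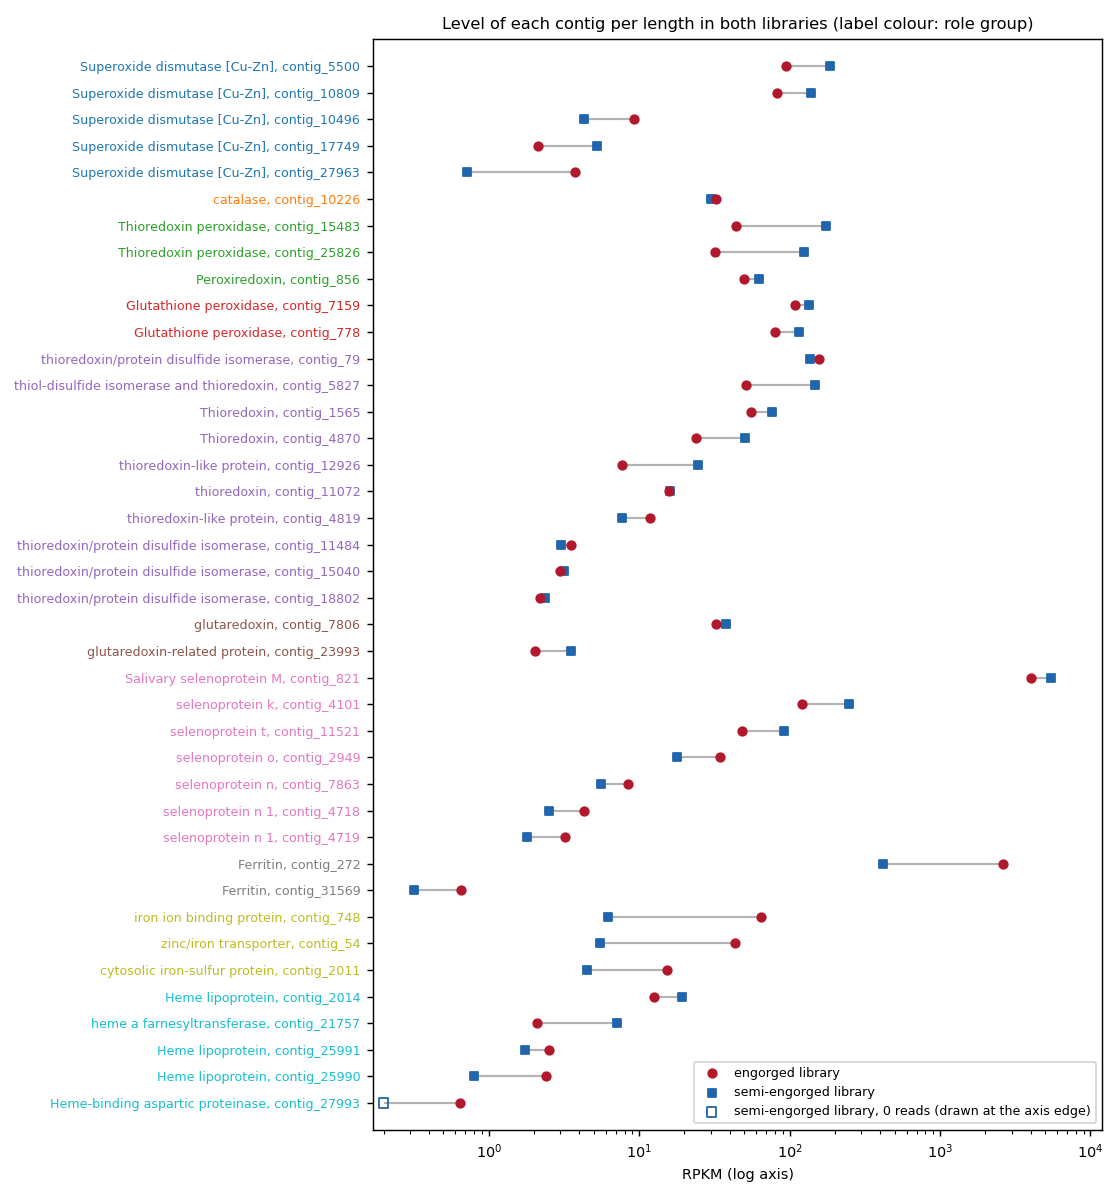
RPKM (x axis, log scale) of each of the 40 contigs in the engorged (circles) and the semi-engorged library (squares), ordered by role group and level. Selenoprotein M (4051 RPKM engorged, 5438 RPKM semi-engorged) and ferritin contig_272 (2625 RPKM engorged, 415 RPKM semi-engorged) stand above all others, and the open square marks the 1 contig without a read in the semi-engorged library.

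Genes that supply or regulate these proteins were read from word lists. The RNA-binding form of aconitase, iron regulatory protein, named 2 contigs, both lower in the engorged library. Contig_5537 had 5042 reads in engorged and 23325 in semi-engorged glands, and was 4.96-fold lower (4.81 to 5.11), and contig_17464 had 1132 reads in engorged and 4671 in semi-engorged glands, and was 4.42-fold lower (4.14 to 4.72). They share a name, and whether they are pieces of 1 transcript was not tested. Another contig of the superfamily, named aconitase (contig_2168), had 5562 reads in engorged and 3485 in semi-engorged glands. Its ratio was 1.49 (1.43 to 1.55), in neither class, and whether the names separate the 2 forms of the protein was not checked. Contig_5537 and contig_17464 were the 2 contigs past the threshold among 13 of the iron-sulfur cluster and mitochondrial iron list. That list had 0 higher and a median log2 fold of -0.37. Its 15.4% lower is close to the 15.5% of all contigs, so the share is not read as a property of the list. With the general shift removed 3 of the 13 were lower. Cysteine desulfurase, frataxin, ferrochelatase and 5-aminolevulinate synthase, which build iron-sulfur clusters or haem, were in neither class. The last (contig_2941) had 1822 reads in engorged and 3033 in semi-engorged glands, and was 1.78-fold lower (1.68 to 1.89). It joined the lower class with the general shift removed.

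Metal transport and haem carriers counted 8 higher and 2 lower of 47 in the engorged library, with a median log2 fold of -0.0026. The counts were 4 and 6 with the general shift removed and 10 and 1 with the 50 most abundant contigs left out, so the list is given no direction. A zinc transporter of solute carrier family 39 (contig_165), the family that the zinc/iron transporter name also covers in animals, had 6381 reads in engorged and 28754 in semi-engorged glands, and was 4.83-fold lower (4.70 to 4.96). It thus differed in the opposite direction to contig_54. A contig named after the feline leukemia virus subgroup C receptor (contig_12998), a haem exporter in mammals, had 1025 reads in engorged and 444 in semi-engorged glands, and was 2.15-fold higher (1.93 to 2.41), a call lost with the general shift removed. Contigs named transferrin receptor counted 3 higher and 1 lower of 10 (3 and 2 with the shift removed, 3 and 0 without the 50 most abundant contigs). The 30% higher stands beside 13.0% of all contigs with at least 20 reads and 22.9% at 100 reads or more in a library. Yet 7 of the 10 log2 folds were negative, with a median of -0.37. The summed CPM of the 10 was 1.28-fold lower (1.25 to 1.31), so no direction is read for them. Vitellogenins, yolk proteins that also bind haem in ticks, counted 3 higher and 0 lower of 24 (1 and 3 with the shift removed), and their summed reads had a ratio of 1.01 (0.999 to 1.02). A vitellogenin-2 (contig_1122), the contig of the list with most RPKM, had 19685 reads in engorged and 23395 in semi-engorged glands.

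The sources of reducing power differed between enzymes. Of 8 contigs of NADPH-supplying or related dehydrogenases, 0 were higher and 3 lower in engorged glands, with a median log2 fold of -0.47. The 37.5% lower stands beside 15.5% of all contigs with at least 20 reads and 24.5% at 100 reads or more in a library. All 3 lower contigs are among the 4 named isocitrate dehydrogenase, so no direction is read for the list. The other of the 4 (contig_8116) was in neither class, with 7558 reads in engorged and 8635 in semi-engorged glands. The 3 are contig_6877 (2530 reads in engorged and 9619 in semi-engorged glands), contig_9178 (2748 reads in engorged and 9467 in semi-engorged glands) and contig_1847 (3492 reads in engorged and 10968 in semi-engorged glands), the last a gamma subunit of the form that makes NADH. Glucose-6-phosphate dehydrogenase, the entry enzyme of the pentose phosphate pathway, was in neither class, with contig_15043 at 1151 reads in engorged and 629 in semi-engorged glands.

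The word list of glutathione transferases, glutathione synthesis and other gamma-glutamyl names counted 11 higher and 6 lower of 36. With the shift removed the counts were 9 and 8, and the sign of the median of 0.16 turned with the scaling. The words also matched other proteins by spelling, among them 3 folylpolygammaglutamyl hydrolase contigs that count as lower, and without such names (chosen after seeing the data) the list counted 10 higher and 3 lower of 31. The contig of the list with most RPKM, contig_1544, had 2944 reads in engorged and 1019 in semi-engorged glands. Gamma-glutamyltransferases, surface enzymes that split glutathione, make up 21 of the list, 9 higher (42.9%) and 2 lower. The share higher was 13.0% of all contigs with at least 20 reads and 22.9% at 100 reads or more in a library. Their counts were 8 and 2 with the shift removed and 11 and 2 without the 50 most abundant contigs. Whether some of the 21 are pieces of 1 transcript was not tested. The other higher contigs of the list were a fax/glutathione S-transferase-like protein (contig_2312) and a protein-glutamine gamma-glutamyltransferase (contig_31397). Contigs named only glutathione S-transferase were in neither class or lower. Those named gamma-glutamylcysteine synthetase, of glutathione synthesis, were in neither class. Among gamma-glutamyltransferases with large differences, chosen after their values were seen, were contig_1561 and contig_3877. Contig_1561 had 7250 reads in engorged and 1176 in semi-engorged glands, and contig_3877 had 99 reads in engorged and 5008 in semi-engorged glands. Selenocysteine use, the machinery that makes and inserts the amino acid, had 0 higher and 0 lower of 7, with a median of -0.56. Of the 7 log2 folds, 5 were negative and 2 positive. With the shift removed 1 was lower, a selenocysteine-specific elongation factor (contig_21551) with 366 reads in engorged and 673 in semi-engorged glands. The contig of this list with most RPKM, a tRNA selenocysteine 1-associated protein (contig_1780), is 1 of the 2 positive ones. It had 12823 reads in engorged and 8597 in semi-engorged glands. Nuclear factor erythroid 2-related factor 1 (contig_356), of the family of transcription factors that switch on antioxidant and proteasome genes in mammals, had 13405 reads in engorged and 3478 in semi-engorged glands. It was 3.60-fold higher (3.47 to 3.74) and the 1 contig past the threshold of 3 in the stress factor list.

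**Figure D5:**
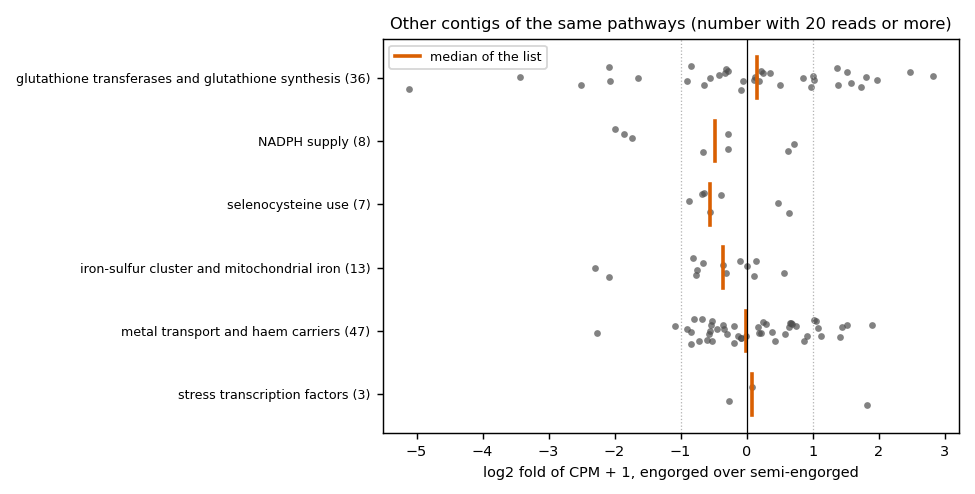
Log2 fold of CPM + 1 (engorged over semi-engorged, x axis) of each contig with at least 20 reads in 6 lists of related genes, with the number of contigs in brackets and the median as a bar; dots are spread vertically for visibility. The contigs named iron regulatory protein lie at -2.30 and -2.09 in the iron-sulfur list, and the highest dot of the stress factor list is contig_356 at 1.83.

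Markers of the gland and of other tissues gave these values beside the results. Salivary words matched 484 contigs, with 1.66% of reads in engorged and 3.07% in semi-engorged glands, and 103 were higher and 228 lower of 478, so gland transcripts were present in both libraries. Vitellogenins made up nearly all reads of the haemocyte and fat body list, which counted 3 higher and 0 lower of 30 (1 and 3 with the shift removed) and held 0.207% of engorged reads and 0.205% of semi-engorged reads, and no contig was named hemocytin, hemocyanin or prophenoloxidase. Muscle words counted 8 higher and 7 lower of 33, or 6 and 8 with the shift removed (0.0543% of engorged, 0.0496% of semi-engorged reads). Nerve words counted 5 higher and 12 lower of 43, or 9 and 12 without the 50 most abundant contigs (0.0750% engorged, 0.107% semi-engorged), and midgut and cuticle words 1 higher and 10 lower of 30 (0.0153% engorged, 0.0412% semi-engorged). The part of these tissues in the differences above was not tested.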

How the data were processed

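Per the labels' protocols, dissected glands were frozen in liquid nitrogen, and Trizol and a TruSeq RNA guide were used for RNA and libraries. Per the file headers, the authors deposited a read count and an RPKM value for each contig in 2 libraries. The submitters' processing notes list CASAVA 1.8, TopHat and Cufflinks without saying what each did. How contigs were assembled, named and counted, and whether strand was used, is not given in the sources used here, and no sequence was used. Reads divided by RPKM and library total gave whole contig lengths to within 0.000232 bases.

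Counts were scaled to CPM by the library total. Log2 folds used CPM + 1, a filter of 20 reads over both libraries and a threshold of 1. Ratios are plain CPM ratios with Clopper-Pearson 95% intervals (exact). Shares have Wilson 95% intervals, and a count of 0 was set to 3 reads, 0.0555 CPM in the semi-engorged library. With 1 library per stage, no p-value was computed. Named are all contigs past the threshold and the 3 with most RPKM in each role group. The others are given for completeness, and of related genes the contig with most RPKM in each list, with others chosen after their values were seen. Members and lists were chosen with earlier results of these data known. Some list words match other proteins by spelling. The calculations (Python 3.11.15, pandas 2.3.3, scipy 1.17.1, edgeR 4.0.16 for TMM) were tested on simulated counts. Alternatives were other pseudocounts, filters, scalings and thresholds, deposited RPKM and 1 contig per identical description.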

Additional observations from a re-analysis of the deposited data

How the results depend on the processing

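The counts of 5 higher and 8 lower members stayed within 1.5 times with a pseudocount of 0.1, no filter, a filter of 100 reads, TMM factors, the median ratio scaling, deposited RPKM and 1 contig per identical description. A pseudocount of 10 gave 3 and 4, and a threshold of log2 2 gave 3 and 0. Totals without the 50 most abundant contigs of each library turned the order to 8 and 5, so no order of these counts is claimed and the cause was not tested. That scaling lost contig_17749, contig_4870 and contig_4101 and brought in contig_10496, contig_2949 and contig_25990. The median log2 fold ran from -0.25 to 0.063. The ratio of read shares was 1.11, and it was 1.53 without selenoprotein M, 0.721 without both selenoprotein M and ferritin (chosen after seeing the data), and 0.843 without the 50 most abundant contigs, which include both. Without names matched by spelling (chosen after seeing the data), the glutathione list counted 10 higher and 3 lower of 31, and the metal list 8 and 2 of 46. No paired analysis was possible because each stage has 1 library. Contigs with few reads are limited by depth, such as contig_31569 with 20 and 9 reads.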
